A study of Homo sapiens with 54 samples.

Results

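The genes described here are 41 genes of the response to low oxygen and of glycolysis, chosen by name from a list that holds the HIF alpha subunits and their hydroxylases, HIF target genes, glucose and lactate transporters and the glycolytic enzymes. A gene was measured where a row of the array table carried its symbol and no other, and 38 of the 41 genes had such a row, out of 18417 genes measured in that way. PGAM1 was not among them because its rows carry several symbols, and CA9 and SLC16A3 are not analysed here. The table gave 1 row for each of the 38 except TPI1, where the brighter of 2 rows was taken.

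The cells were NCI-H460, a long-established human lung cancer line of the large cell type, and each of 54 samples was measured on its own one-colour whole-transcript array. All cultures were held in medium without serum, and no group is labelled as kept at low oxygen. Each culture was pretreated with cigarette smoke extract holding 5 uM nicotine, with 5 uM nicotine, or with nothing, and 2 h later it received 6 Gy of ionizing radiation, 1 uM cisplatin, or no therapy. Harvest followed 2 h or 24 h after the therapy step. This gave 9 treatments at each time, with 3 arrays each: smoke extract with radiation, with cisplatin and alone; nicotine with radiation, with cisplatin and alone; radiation alone; cisplatin alone; and untreated cells. Cisplatin crosslinks DNA and radiation breaks it. Levels are the deposited values, taken as log2 from their range, so a difference of 1 is a doubling. Errors of a change are the SE of a linear model fitted with limma to all arrays and all genes. A gene is said to have risen or fallen, or to be called, where its Benjamini-Hochberg adjusted p over all 18417 genes was under 0.05. The labels name the 3 arrays of a group biological replicates.

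When oxygen is plentiful, the prolyl hydroxylases EGLN1 and EGLN3 mark the alpha subunits HIF1A and EPAS1 for destruction. When it is scarce, the subunits persist, pair with ARNT and turn on genes for glucose uptake, glycolysis, blood vessel growth and mitophagy. The same partner, ARNT, also serves the aryl hydrocarbon receptor AHR, which binds ring compounds of tobacco smoke, and many tumour lines, lung lines among them, run glycolysis at a high rate even in air.

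The level of the 38 genes was mostly high: 34 lay above the median of all genes, which was 7.04. GAPDH had a mean level of 13.13 over the 54 arrays, ENO1 of 12.54 and LDHA of 12.25. As a measure of array background, the mean of 453 genes from families silent in most cells (olfactory receptors, TAS2R taste receptors and KRTAP keratin-associated proteins) was taken, and it ran from 4.66 to 5.15 over the arrays. Of these genes 95% had a mean level up to 6.76. LOX at 4.98, ANKRD37 at 6.32, PFKFB4 at 6.41 and STC1 at 6.74 had mean levels below that, and since no detection calls were used, such levels cannot be told from background and the size of a change that starts or ends there is uncertain. The epithelial keratins KRT8, KRT18 and KRT19 had mean levels of 11.96, 11.26 and 11.54, whereas EPCAM at 5.28 and CDH1 at 5.07 were low. The 6 endothelial markers had mean levels from 4.80 to 5.83. Of 5 leukocyte markers PTPRC was at 3.40 and LYZ at 3.88, but CD68 at 9.41. Of 6 fibroblast markers DCN was at 3.12, but COL1A1 at 7.56, COL3A1 at 7.22 and PDGFRB at 6.98. Arrays of 1 group correlated with each other between 0.979 and 0.996, and no pair of arrays was identical.

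Across all 18 groups, an F test called 34 of the 38 genes, against 60.1% of all genes. The share of genes above the median level was not computed for this test. STC2 ranked 8th, NDRG1 13th and SLC2A1 197th of the 18417 genes by F. The 4 genes that were not called were EGLN1, LOX, P4HA1 and GAPDH, and the group means of GAPDH lay within 0.12 of each other, with an adjusted p of 0.716. In 34 of the 38 genes the highest and lowest group mean were no more than 1 log2 unit apart, so most of the differences below are small ones between well expressed genes. The heat map of the group means shows these patterns side by side.

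**Figure D1:**
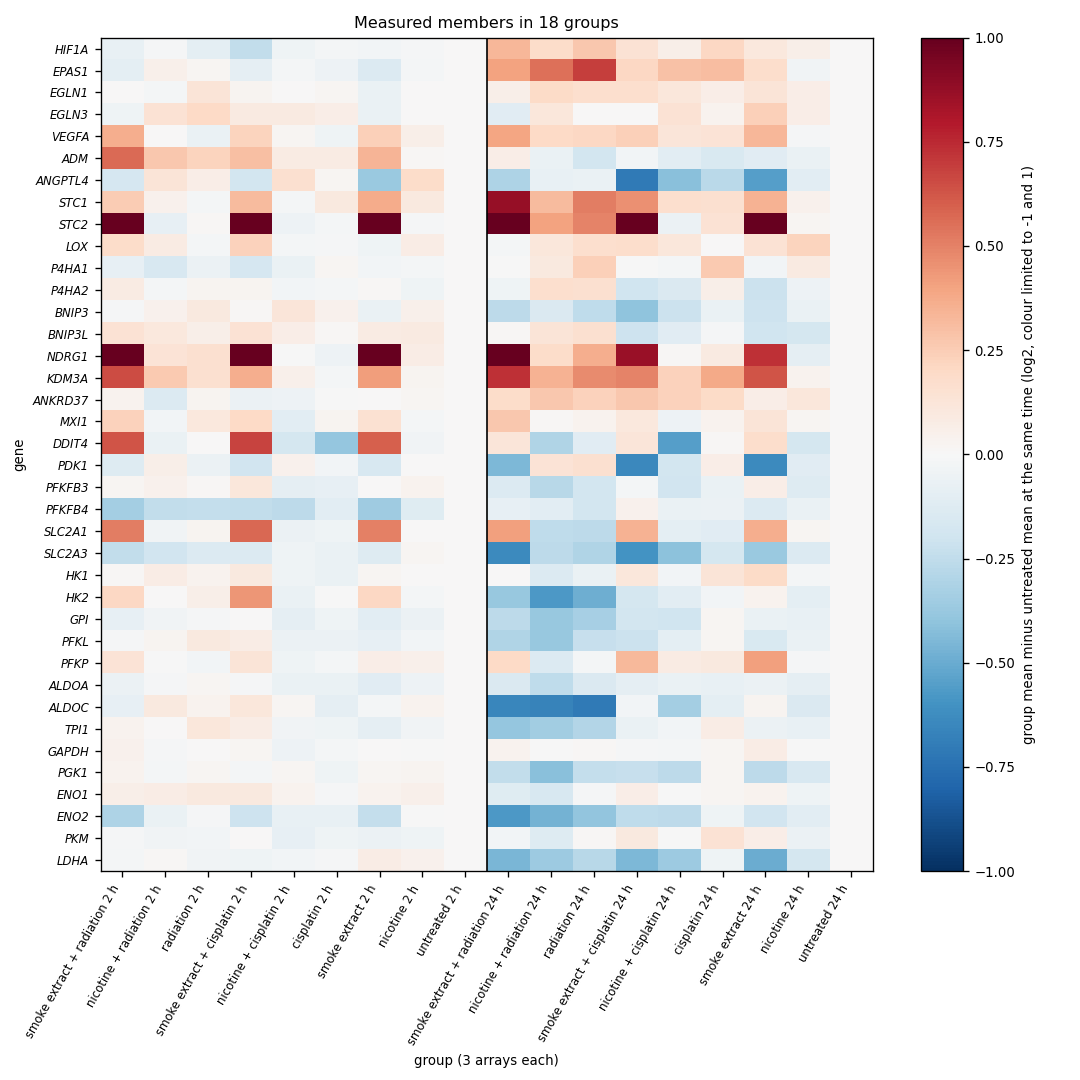
Colour gives the group mean of each of the 38 genes (down) in each of the 18 groups of 3 arrays (across) minus the untreated mean at the same time, on the log2 scale, with colours limited to -1 and 1. STC2 and NDRG1 are red in the 3 smoke extract groups at both times, and ALDOC and HK2 are blue in the 3 radiation groups at 24 h.

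The first question was what cigarette smoke extract had done at the 2 h harvest. Times here count from the therapy step, and the extract was given 2 h before that step. A few HIF target genes rose, 2 of them strongly: the secreted glycoprotein gene STC2 by 4.18-fold and NDRG1, a stress-induced gene linked to growth arrest, by 3.15-fold. The stress gene DDIT4, an inhibitor of mTOR signalling, and the glucose transporter gene SLC2A1 rose less, and no glycolytic enzyme was called. Of the 38 genes, 7 rose and 1 fell, against 3.77% of all genes called (1.74% higher and 2.04% lower) and 6.27% of genes above the median level. The median change of the 38 genes was 0, against -0.02 over all genes, so the rise was that of a few genes and not of the list as a whole. In bulk RNA, fewer cells that express a gene and less RNA per cell cannot be told apart.

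STC2 stood at 9.73, 9.55 and 9.87 on the 3 arrays of smoke extract, against 7.67, 7.80 and 7.50 on the untreated arrays. NDRG1 stood at 9.37, 9.23 and 9.32 with smoke extract and at 7.69, 7.70 and 7.55 without. In both genes every smoke extract array lay more than 1 log2 unit above every untreated array. The changes were 2.06 ± 0.10 (SE) for STC2 (adjusted p = 2.72e-20) and 1.66 ± 0.08 for NDRG1 (adjusted p = 2.41e-20). DDIT4 stood at 10.01, 10.01 and 10.16 with smoke extract, against 9.49, 9.52 and 9.38 in untreated cells, a change of 0.60 ± 0.14 (adjusted p = 0.00553). SLC2A1, which brings glucose into the cell, stood at 12.35, 12.28 and 12.37 with smoke extract and at 11.87, 11.83 and 11.78 in untreated cells. Its change was 0.51 ± 0.06 (adjusted p = 2.07e-09), and again the arrays did not overlap.

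Smaller changes were called in KDM3A, a histone demethylase that HIF induces (0.42 ± 0.11, adjusted p = 0.0197), in STC1, the relative of STC2 (0.37 ± 0.11, adjusted p = 0.0313), and in ADM, which encodes the vessel-dilating peptide adrenomedullin (0.34 ± 0.08, adjusted p = 0.008). KDM3A stood at 7.88, 7.64 and 7.89 with smoke extract, against 7.38, 7.45 and 7.33 in untreated cells. The gene that fell was PFKFB4, a regulator of phosphofructokinase, at 6.15, 6.26 and 6.34 with smoke extract and 6.55, 6.61 and 6.66 in untreated cells, a change of -0.36 ± 0.08 (adjusted p = 0.00418), with all 6 arrays below 6.76. In these 4 genes the arrays of the groups did not overlap, but the calls rested on few arrays. The calls of KDM3A and STC1 were lost without untreated replicate 1 or 3 or smoke extract replicate 1 or 3, with adjusted p up to 0.116 and 0.21. ADM was lost without untreated replicate 1 or 2 or smoke extract replicate 2 (adjusted p up to 0.0705), PFKFB4 without smoke extract replicate 1 (0.0594), and the count of called genes was 5 without untreated replicate 1 or smoke extract replicate 1.

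The alpha subunits and the textbook glycolytic targets gave these values at 2 h. HIF1A changed by -0.03 ± 0.08 (adjusted p = 0.999) and EPAS1 by -0.13 ± 0.09 (0.767). VEGFA, the vascular growth factor gene, stood at 8.62, 8.53 and 8.59 with smoke extract, against 8.29, 8.34 and 8.39 in untreated cells, and its change of 0.24 ± 0.09 did not pass the test (adjusted p = 0.232) although the arrays did not overlap. LDHA, which turns pyruvate into lactate, differed by 0.07 ± 0.13, PGK1 by 0.02 ± 0.08 and GAPDH by -0.01 ± 0.04, with adjusted p from 0.986 to 0.999. None of the 14 glycolytic enzymes was called, with a median change of -0.01, and 3 of them had an unadjusted p under 0.05.

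To show what the DNA around these start sites looks like, the promoter windows of STC2, DDIT4 and SLC2A1 follow, taken from RefSeq (GRCh38.p14) and reading along the gene from 250 bases before its start to 50 bases after it. They lie at chr5:173328365-173328664 on the minus strand, chr10:72273674-72273973 on the plus strand and chr1:42958819-42959118 on the minus strand. Capitals mark ACGTG and GCGTG on either strand. HIF with ARNT can bind either core, and AHR with ARNT binds GCGTG.
STC2: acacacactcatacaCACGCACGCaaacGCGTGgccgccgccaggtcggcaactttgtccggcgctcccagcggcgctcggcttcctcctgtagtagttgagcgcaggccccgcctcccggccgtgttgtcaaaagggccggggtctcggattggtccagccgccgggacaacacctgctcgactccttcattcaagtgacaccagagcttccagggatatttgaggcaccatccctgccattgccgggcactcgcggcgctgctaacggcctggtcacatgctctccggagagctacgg
DDIT4: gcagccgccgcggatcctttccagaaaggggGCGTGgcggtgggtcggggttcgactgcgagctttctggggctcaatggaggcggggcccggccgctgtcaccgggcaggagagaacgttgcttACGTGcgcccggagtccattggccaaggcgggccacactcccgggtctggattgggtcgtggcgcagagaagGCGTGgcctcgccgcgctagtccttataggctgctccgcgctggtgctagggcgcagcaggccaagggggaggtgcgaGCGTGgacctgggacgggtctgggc
SLC2A1: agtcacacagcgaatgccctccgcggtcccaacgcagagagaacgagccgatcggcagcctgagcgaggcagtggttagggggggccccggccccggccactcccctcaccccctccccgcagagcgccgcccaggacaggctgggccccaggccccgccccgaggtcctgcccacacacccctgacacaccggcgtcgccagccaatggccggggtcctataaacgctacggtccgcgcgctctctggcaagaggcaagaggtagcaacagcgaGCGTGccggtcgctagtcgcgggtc
The STC2 window holds GCGTG 3 times and ACGTG 0 times, and 1 of the 3 sits in the longer motif TNGCGTG, which contains GCGTG. DDIT4 holds ACGTG 1 time, starting 125 bases before the start of the gene, and GCGTG 3 times. SLC2A1 holds GCGTG 1 time, past the start site, and ACGTG 0 times in this window.

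Windows were found for 33 of the 38 measured genes, 55 windows in all, since some genes have several starts. ACGTG was in 45.5% of those windows, against 21.4% of all 35116 windows in the table, and at least 1 window of 20 of the 33 genes held it. GCGTG was in 50.9%, against 36.5% of all windows, and TNGCGTG in 3.6%, against 5.5%. The search covered both strands, and CACGTG counts as ACGTG on each strand. These are counts of letters in short windows: a match is not a bound site, and sites farther from the start were not searched.

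The next question was whether smoke extract did the same in cells that went on to receive a therapy. It did so for the leading genes: STC2, NDRG1, KDM3A, DDIT4 and SLC2A1, 5 of the 38, were called higher at 2 h in untreated, irradiated and cisplatin-treated cells alike, 3 comparisons that share no arrays. After radiation, 7 of the 38 genes rose and 1 fell with smoke extract, against 2.66% of all genes (1.75% higher and 0.907% lower) and 4.37% of those above the median level. After cisplatin 6 rose and 0 fell, against 5.46% (3.58% higher and 1.87% lower) and 9.12%, and with quantile normalization the split was 6 and 1. The plot of levels in all 18 groups shows the 6 genes that lead this pattern.

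**Figure D2:**
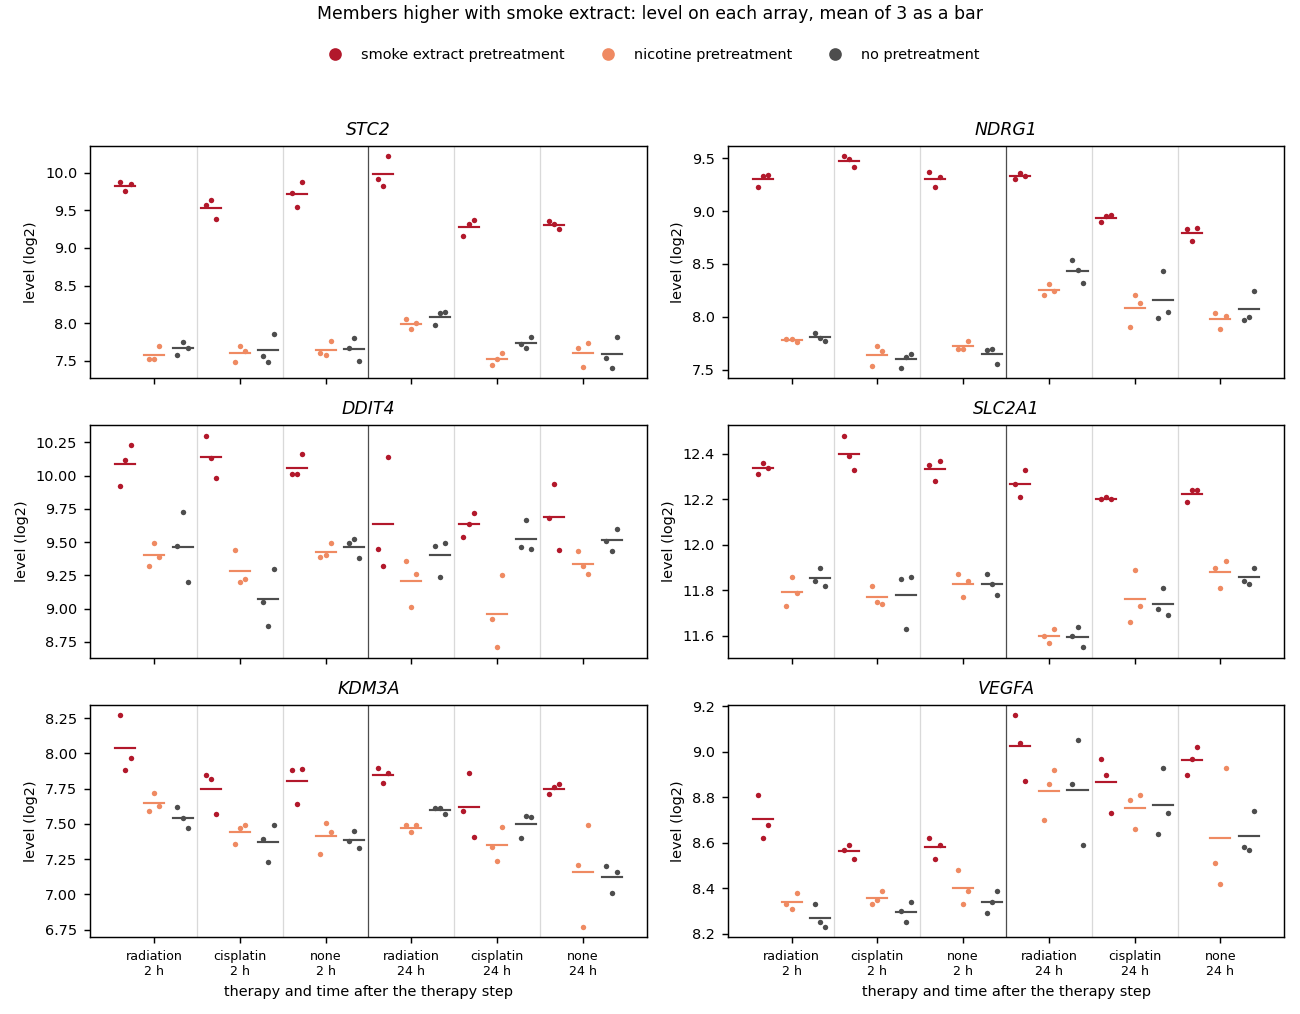
Points give the log2 level on each array and bars the mean of 3, by therapy and time (across), for smoke extract, nicotine and no pretreatment. At 2 h the 9 smoke extract arrays of STC2, NDRG1, DDIT4, SLC2A1 and VEGFA lie above all 18 arrays without smoke extract, and at 24 h this holds for STC2, NDRG1 and SLC2A1.

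STC2 rose by 2.16 ± 0.10 in irradiated cells (adjusted p = 5.48e-21) and by 1.89 ± 0.10 in cisplatin-treated cells (adjusted p = 6.14e-19). Over the 9 smoke extract arrays at 2 h its lowest, median and highest levels were 9.39, 9.73 and 9.87, against 7.48, 7.61 and 7.86 over the 18 arrays without smoke extract. NDRG1 ran from 9.23 to 9.52 with a median of 9.34 on the 9 smoke extract arrays, against 7.52 to 7.85 with a median of 7.70 on the 18 arrays without. Neither gene's ranges came close to meeting. SLC2A1 ran from 12.28 to 12.48 with a median of 12.35 with smoke extract, against 11.63 to 11.90 with a median of 11.83 without. DDIT4 ran from 9.92 to 10.30 with a median of 10.12 with smoke extract, against 8.87 to 9.73 with a median of 9.39 without. VEGFA ran from 8.53 to 8.81 with a median of 8.59 with smoke extract, against 8.23 to 8.48 with a median of 8.33 without. These 5 genes were the members without overlap between the 9 and the 18 arrays in the upward direction, against 1.6% of all genes, and 0 were without overlap in the downward direction, against 0.901%.

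DDIT4 stood at 10.30, 10.13 and 9.98 with smoke extract and cisplatin, against 9.05, 8.87 and 9.30 with cisplatin alone, a change of 1.06 ± 0.14 (adjusted p = 3.32e-07). Its change in irradiated cells was 0.62 ± 0.14 (adjusted p = 0.00421), a call lost without replicate 3 of either group (adjusted p up to 0.0844). The difference between the DDIT4 effects in cisplatin-treated and untreated cells, 0.46 ± 0.20, was not called (adjusted p = 0.672). HK2, which phosphorylates glucose on entry, stood at 8.70, 8.61 and 8.52 with smoke extract and cisplatin, against 8.13, 8.21 and 8.15 with cisplatin, a change of 0.45 ± 0.08 (adjusted p = 0.000183). VEGFA rose by 0.43 ± 0.09 in irradiated cells (adjusted p = 0.00299) and changed by 0.27 ± 0.09 in cisplatin-treated cells (adjusted p = 0.103). ENO2, the neuronal form of enolase, fell by 0.30 in irradiated cells (SE 0.08, adjusted p = 0.0225), at 6.96, 6.92 and 6.92 with smoke extract and radiation and 7.17, 7.35 and 7.18 with radiation alone.

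KDM3A rose by 0.50 ± 0.11 in irradiated cells (adjusted p = 0.00388) and by 0.37 ± 0.11 in cisplatin-treated cells (0.0375), and ADM by 0.34 ± 0.08 in irradiated cells (0.00933). The KDM3A calls were lost without smoke extract with radiation replicate 1 (adjusted p 0.104), and, in cisplatin-treated cells, without replicate 1 or 2 of either group (up to 0.191). ADM was lost without radiation replicate 3 or smoke extract with radiation replicate 1 or 2 (up to 0.0723), and ENO2 without radiation replicate 2 or any 1 smoke extract with radiation array (up to 0.268). Without smoke extract with radiation replicate 1, 5 genes were called in irradiated cells. No interaction of smoke extract with radiation or with cisplatin was called in any of the 38 genes at 2 h, where 0.0% of all genes were called, and the smallest unadjusted p were 0.0303 for PFKFB4 with radiation and 0.00989 for ALDOA with cisplatin.

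Averaged over the 3 therapies, which pools 9 arrays on each side, smoke extract at 2 h raised 11 and lowered 3 of the 38 genes, against 9.28% of all genes. For this and the other averaged effects, the share of genes above the median level was not computed. The additional calls were small. VEGFA rose by 0.31 ± 0.05, HK2 by 0.27 ± 0.05, MXI1, a gene that opposes MYC, by 0.15 ± 0.04, and PFKP, a phosphofructokinase gene, by 0.13 ± 0.04. ANGPTL4, a secreted inhibitor of lipoprotein lipase, fell by 0.27 and ENO2 by 0.22, with SE of 0.07 and 0.05.

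Other genes of the pathway put these changes in context. Of 6 measured genes of the AHR pathway 4 rose at 2 h (66.7%), against 1.74% of all genes. CYP1A1, the smoke-metabolizing P450 gene, stood at 8.78, 8.47 and 8.59 with smoke extract, against 5.31, 5.13 and 5.29 in untreated cells, a change of 3.37 ± 0.14 (adjusted p = 8.5e-24), and TIPARP rose by 2.76 ± 0.09. The untreated CYP1A1 arrays lie below 6.76, near the silent families, so the size of its change is uncertain. Of 27 other HIF target genes 4 rose and 2 fell (22.2%, against 3.77% of all genes and 6.27% of those above the median level), and the rises of EFNA1, an ephrin ligand gene, by 1.43 ± 0.12 (adjusted p = 1.1e-12), EFNA3 by 0.77 ± 0.10 and CCNG2, a cyclin gene linked to growth arrest, by 0.63 ± 0.11 were the largest changes. None of 12 regulators of the HIF pathway was called, although 3 had an unadjusted p under 0.05. PDK4, which like PDK1 restrains pyruvate dehydrogenase, was the 1 gene called of 14 for pyruvate and lactate routing, at 7.83, 7.85 and 7.99 with smoke extract and 8.47, 8.56 and 8.42 in untreated cells (adjusted p = 3.59e-05). How these calls outside the 38 genes depend on single arrays was not computed.

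At 24 h the pattern under smoke extract had split. STC2, NDRG1, KDM3A and SLC2A1 were still higher. By contrast PDK1, a kinase gene whose product restrains pyruvate dehydrogenase, LDHA, which makes lactate, SLC2A3, another glucose transporter gene, and ANGPTL4 were lower. Of the 38 genes 9 rose and 7 fell, against 16.1% of all genes (8.67% higher and 7.4% lower) and 27.6% of genes above the median level. The median change was 0.05, against 0.01 for all genes. Of the glycolytic enzymes 4 were called, PFKP and HK1 higher and LDHA and PGK1 lower, so the pathway did not move in 1 direction.

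STC2 stood at 9.36, 9.32 and 9.25 with smoke extract, against 7.54, 7.41 and 7.82 in untreated cells, a 3.30-fold difference (1.72 ± 0.10, adjusted p = 1.71e-17). NDRG1 stood at 8.83, 8.72 and 8.84 with smoke extract and at 7.97, 8.00 and 8.24 in untreated cells (0.73 ± 0.08, adjusted p = 5.83e-09). Both remained clear of the untreated arrays, but the effect on NDRG1 was smaller than at 2 h by 0.93 ± 0.12 (adjusted p = 9.55e-07 for the difference of the effects). Part of that difference lay in the untreated cells, whose NDRG1 level was itself higher at 24 h than at 2 h. KDM3A stood at 7.71, 7.76 and 7.78 with smoke extract, against 7.20, 7.01 and 7.16 in untreated cells (0.62 ± 0.11, adjusted p = 7.67e-05). PFKP stood at 10.47, 10.41 and 10.40 with smoke extract and at 9.98, 10.01 and 10.05 in untreated cells (0.41 ± 0.07, adjusted p = 1.28e-05). SLC2A1 stood at 12.19, 12.24 and 12.24 with smoke extract, against 11.84, 11.83 and 11.90 in untreated cells (0.37 ± 0.06, adjusted p = 2.56e-06). In each of these genes all smoke extract arrays lay above all untreated arrays.

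PDK1 stood at 8.96, 8.87 and 8.84 with smoke extract, against 9.55, 9.52 and 9.51 in untreated cells, and it fell by 0.63 on the log2 scale (SE 0.10, adjusted p = 6.19e-06). ANGPTL4 stood at 7.43, 7.59 and 7.35 with smoke extract and at 7.97, 7.99 and 8.06 in untreated cells (-0.55 ± 0.12, adjusted p = 0.000809). Both falls are wider than the spread of either group. LDHA stood at 12.04, 11.95 and 11.75 with smoke extract, against 12.50, 12.38 and 12.34 in untreated cells (-0.49 ± 0.13, adjusted p = 0.00481). SLC2A3 stood at 10.66, 10.65 and 10.67 with smoke extract and at 11.01, 11.03 and 11.05 in untreated cells (-0.37 ± 0.08, adjusted p = 0.00141). The PDK1 window at chr2:172555840-172556139 on the plus strand (GRCh38.p14, RefSeq) is shown because PDK1 was called lower in all 3 therapy backgrounds at 24 h. Capitals mark ACGTG on the opposite strand, read here as CACGT, 17 and 8 bases before the start.
PDK1: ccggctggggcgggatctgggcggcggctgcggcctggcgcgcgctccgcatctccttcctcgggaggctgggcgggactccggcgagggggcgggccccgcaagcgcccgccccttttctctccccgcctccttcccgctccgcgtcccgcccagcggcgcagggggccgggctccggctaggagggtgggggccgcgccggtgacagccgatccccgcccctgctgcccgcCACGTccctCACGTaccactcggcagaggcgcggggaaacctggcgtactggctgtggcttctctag
Another PDK1 start in the table has neither core in its window.

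The remaining calls at 24 h were small. VEGFA rose by 0.33 ± 0.09 (adjusted p = 0.0113), STC1 by 0.35 ± 0.11 (0.018), EGLN3, the hydroxylase gene that HIF itself induces, by 0.24 ± 0.08 (0.0266) and HK1, a hexokinase gene, by 0.19 ± 0.07 (0.0378). PGK1 fell by 0.26 (SE 0.08, adjusted p = 0.0114), P4HA2, a collagen prolyl hydroxylase subunit gene, by 0.22 (SE 0.07, 0.0362) and BNIP3, a mitophagy receptor gene, by 0.21 (SE 0.07, 0.0344). HIF1A differed by 0.11 ± 0.08 (adjusted p = 0.465), EPAS1 by 0.17 ± 0.09 (0.234), GAPDH by 0.07 ± 0.04 (0.299) and DDIT4 by 0.17 ± 0.14 (0.513). Several of these calls depended on 1 array. LDHA was lost without smoke extract replicate 3 (adjusted p 0.0523), PGK1 without smoke extract replicate 2 (0.0782) or with quantile normalization (0.131), and VEGFA and STC1 without untreated replicate 1 or 2, or without smoke extract replicate 3 for VEGFA and 1 for STC1 (up to 0.0599 and 0.0936). EGLN3 was lost without replicate 1 or 2 of either group (up to 0.188). HK1 and BNIP3 were lost without any 1 untreated array or smoke extract replicate 1 or 3 (up to 0.163 and 0.164), P4HA2 without any 1 untreated array or smoke extract replicate 1 or 2 (up to 0.171), and 10 genes were called without untreated replicate 1 or 2.

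In irradiated cells at 24 h, smoke extract raised 6 and lowered 3 of the 38 genes, against 8.23% of all genes (2.55% higher and 5.68% lower) and 13.4% of those above the median level, and with quantile normalization it raised 8 and lowered 2. In cisplatin-treated cells it raised 5 and lowered 10, against 28.6% (14.6% higher and 14.1% lower) and 31.8%. The share of the 38 genes called was 39.5%. Genes called higher in all 3 backgrounds numbered 5 (STC1, STC2, NDRG1, SLC2A1 and PFKP), and those called lower numbered 2 (PDK1 and SLC2A3). STC2 rose by 1.90 ± 0.10 in irradiated cells and by 1.55 ± 0.10 in cisplatin-treated cells, with adjusted p of 3.01e-19 and 4.73e-16. Over all 9 smoke extract arrays at 24 h STC2 ran from 9.16 to 10.22 with a median of 9.36, against 7.41 to 8.15 with a median of 7.72 in the 18 arrays without it. NDRG1 and SLC2A1 were the other members whose 9 and 18 arrays did not overlap, 3 in all, against 1.03% of all genes.

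PDK1 stood at 8.90, 8.97 and 9.36 with smoke extract and radiation, against 9.65, 9.59 and 9.83 with radiation alone (-0.61 ± 0.10, adjusted p = 7.04e-06). With smoke extract and cisplatin it stood at 8.61, 9.07 and 8.96, against 9.66, 9.39 and 9.73 with cisplatin alone (-0.72 ± 0.10, adjusted p = 5.4e-07). SLC2A3 fell by 0.33 in irradiated cells (SE 0.08, adjusted p = 0.00475) and by 0.43 in cisplatin-treated cells (SE 0.08, adjusted p = 0.00022). The first of these was lost without smoke extract with radiation replicate 2 (adjusted p 0.129). STC1 and PFKP rose by 0.35 ± 0.11 and 0.22 ± 0.07 in irradiated cells and by 0.29 ± 0.11 and 0.23 ± 0.07 in cisplatin-treated cells, with adjusted p from 0.0113 to 0.0356, and each of these 4 calls was lost without at least 1 array. In irradiated cells STC1 was lost without replicate 2 or 3 of either group (adjusted p up to 0.135), and PFKP without radiation replicate 3 or smoke extract with radiation replicate 1 or 2 (up to 0.316). In cisplatin-treated cells STC1 was lost without any 1 cisplatin array or smoke extract with cisplatin replicate 1 or 2 (up to 0.151), and PFKP without cisplatin replicate 3 (0.0882).

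NDRG1 rose by 0.90 ± 0.08 in irradiated cells and by 0.78 ± 0.08 in cisplatin-treated cells, and MXI1 by 0.23 ± 0.07 in irradiated cells (adjusted p = 0.0211), where the arrays overlapped and the call was lost without radiation replicate 1 or 2 or smoke extract with radiation replicate 3 (up to 0.179). EPAS1 fell by 0.29 in irradiated cells (SE 0.09, adjusted p = 0.0466), with overlapping arrays, and that call was lost without any 1 of the 6 arrays except radiation replicate 3 (up to 0.309). Without smoke extract with radiation replicate 2, 6 genes were called in irradiated cells. In cisplatin-treated cells ANGPTL4, LDHA, BNIP3, P4HA2, PGK1, PFKL, ENO2 and GPI fell by 0.20 to 0.44. Beside this count stands the array background: the silent-family mean was higher by 0.24 with smoke extract and cisplatin than with cisplatin alone, against 0.01 in the untreated and in the irradiated background, and among genes above the median level 755 rose and 2171 fell. With the silent-family mean as a covariate, 4 of the 38 genes rose and 3 fell, and without cisplatin replicate 3 the count was 7, with ANGPTL4, LDHA, P4HA2, PGK1, ENO2, GPI, STC1 and PFKP lost. The part of the array background in these calls was not tested.

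The effect of smoke extract was called different in irradiated and untreated cells at 24 h in 2 of the 38 genes, against 2.57% of all genes (0.733% higher and 1.84% lower) and 4.87% of those above the median level. That count lay near the share of genes above the median level. SLC2A1 rose more in irradiated cells, at 12.27, 12.21 and 12.33 with smoke extract and radiation against 11.60, 11.64 and 11.55 with radiation, a difference of effects of 0.30 ± 0.08 (adjusted p = 0.0256). Its level on all 9 smoke extract arrays at 24 h lay between 12.19 and 12.33, whereas radiation alone lowered it. The difference for EPAS1 had the opposite sign, at 10.04, 10.06 and 9.87 with smoke extract and radiation against 10.43, 10.39 and 10.01 with radiation (-0.46 ± 0.13, adjusted p = 0.0465). The SLC2A1 call was lost without untreated replicate 3, smoke extract replicate 1, radiation replicate 1 or smoke extract with radiation replicate 3 (adjusted p up to 0.0701), and the EPAS1 call without any 1 of 9 of the 12 arrays (up to 0.187). Both were lost with quantile normalization, at adjusted p of 0.316 and 0.0631. The same difference between cisplatin-treated and untreated cells was called by limma in 0 of the 38 genes, against 0.152% of all genes, with 4 of the 38 at an unadjusted p under 0.05 and the smallest unadjusted p at 0.00247 for KDM3A and 0.0153 for EGLN3.

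Averaged over the therapies at 24 h, smoke extract raised 8 and lowered 11 of the 38 genes, against 27.7% of all genes. Among the smaller changes, MXI1 rose by 0.14 ± 0.04, P4HA1 and BNIP3L fell by 0.18 each, ENO2 by 0.19 and PFKL by 0.15. Outside the 38 genes, all 6 measured AHR genes were higher at 24 h, CYP1A1 among them. CCNG2 stood at 8.18, 8.30 and 8.33 with smoke extract, against 7.34, 7.18 and 7.32 in untreated cells (0.99 ± 0.11, adjusted p = 5e-09), and HILPDA, a HIF-induced gene of lipid droplets, at 7.31, 7.54 and 7.27 with smoke extract, against 8.37, 8.20 and 8.32 in untreated cells (-0.92 ± 0.17, adjusted p = 0.000146). Of the 27 other HIF target genes 4 rose and 2 fell, of 12 HIF regulators 3 rose and 3 fell, RBX1, of the complex that destroys HIF alpha subunits, most (-0.73 ± 0.20, adjusted p = 0.00727), of 20 further glycolysis and gluconeogenesis genes 0 rose and 4 fell, and of 14 pyruvate and lactate routing genes 1 rose and 4 fell. The shares called were 22.2%, 50.0%, 20.0% and 35.7% in that order, against 16.1% of all genes and 27.6% of those above the median level for smoke extract alone at 24 h, so the other HIF targets and the further glycolysis genes were near the background.

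Comparing 2 h with 24 h directly, the smoke extract effect differed in 5 of the 38 genes, against 6.29% of all genes (4.65% higher and 1.64% lower) and 11.4% of those above the median level. This count lay near the share of genes above the median level. It was lower at 24 h in NDRG1, LDHA (-0.56 ± 0.18, adjusted p = 0.0464), PDK1 (-0.48 ± 0.14, 0.0304) and ADM (-0.45 ± 0.12, 0.0157), and higher in PFKP (0.35 ± 0.09, 0.02). The NDRG1 difference held without any 1 of the 12 arrays. LDHA lost its call without any 1 of 11 arrays, PDK1 without any 1 of 7, PFKP without untreated replicate 2 at 2 h or replicate 1 of either group at 24 h, and ADM without replicate 2 of either group at 2 h. The count was 2 without replicate 2 of either group at 2 h or untreated replicate 1 at 24 h.

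Radiation raised a different question: whether 6 Gy alters this gene set at all. At 2 h, 0 of the 38 genes were called with limma, against 0.304% of all genes, with 4 of the 38 at an unadjusted p under 0.05, although 6 of 8 p53 target genes had already risen. The smallest p belonged to PFKFB4 (-0.24 ± 0.08, adjusted p = 0.366) and ADM (0.22 ± 0.08, adjusted p = 0.489). HIF1A differed by -0.10 ± 0.08, EPAS1 by 0.02 ± 0.09, VEGFA by -0.07 ± 0.09, SLC2A1 by 0.03 ± 0.06, LDHA by -0.03 ± 0.13 and PGK1 by 0.02 ± 0.08, all with adjusted p of 1. Averaged over the 3 pretreatments, ADM was called, higher by 0.23 ± 0.05 (adjusted p = 0.00282), against 1.35% of all genes.

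Radiation and smoke extract at 24 h were set against the same untreated arrays. By then radiation had changed 17 of the 38 genes: 6 rose and 11 fell, against 21.0% of all genes (10.0% higher and 11.0% lower) and 35.0% of genes above the median level. The calls went in both directions. Both HIF alpha subunits rose, led by EPAS1 at 1.61-fold, and so did 4 HIF target genes outside glycolysis and glucose transport. BNIP3, the mitophagy receptor gene and also a HIF target, fell. Of the 14 glycolytic enzymes 8 fell and 0 rose, and both glucose transporters fell. Genes for glucose uptake and glycolysis are HIF targets too, so the called HIF targets went in both directions. HIF activity was not tested. ALDOC fell most, to a level 1.63-fold lower. The median change of the 14 enzymes was -0.24, against 0.03 over all genes and -0.01 over genes above the median level.

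EPAS1 stood at 10.43, 10.39 and 10.01 in irradiated cells, against 9.51, 9.64 and 9.61 in untreated cells (0.69 ± 0.09, adjusted p = 1.95e-07). HIF1A stood at 10.84, 10.78 and 10.91 in irradiated cells and at 10.70, 10.54 and 10.48 in untreated cells (0.27 ± 0.08, adjusted p = 0.0135). The irradiated arrays were above all untreated ones in both subunits, with 1 EPAS1 array well below the other 2. HIF alpha subunits are controlled mainly through the stability of their proteins, which arrays do not measure. STC1 stood at 7.12, 6.89 and 6.93 with radiation, against 6.39, 6.40 and 6.61 without (0.52 ± 0.11, adjusted p = 0.000231). STC2 stood at 7.97, 8.13 and 8.15 with radiation and at 7.54, 7.41 and 7.82 without (0.49 ± 0.10, adjusted p = 0.000305). KDM3A rose by 0.47 ± 0.11 (adjusted p = 0.00136) and NDRG1 by 0.36 ± 0.08 (adjusted p = 0.000878), again without overlap of the arrays.

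ALDOC, an aldolase gene, stood at 7.84, 7.91 and 7.84 in irradiated cells, against 8.65, 8.47 and 8.59 in untreated cells (-0.71 ± 0.09, adjusted p = 3.53e-08). HK2 stood at 7.55, 7.78 and 7.55 in irradiated cells and at 8.13, 8.03 and 8.18 in untreated cells (-0.49 ± 0.08, adjusted p = 1.5e-05). ENO2 stood at 6.89, 6.85 and 6.89 in irradiated cells, against 7.23, 7.20 and 7.39 in untreated cells (-0.40 ± 0.08, adjusted p = 0.000151). In each of the 3 genes every irradiated array lay below every untreated array. GPI, the isomerase that follows hexokinase, fell by 0.33 (SE 0.07, adjusted p = 0.000638), with irradiated arrays at 10.94, 10.87 and 11.21 and untreated ones at 11.35, 11.38 and 11.28. TPI1, triosephosphate isomerase, fell by 0.29 (SE 0.07, adjusted p = 0.00149), SLC2A3 by 0.30 (SE 0.08, 0.00604) and SLC2A1 by 0.26 (SE 0.06, 0.000378). The ALDOC window, shown because ALDOC fell most with radiation, lies at chr17:28576846-28577145 on the minus strand (GRCh38.p14, RefSeq), with ACGTG or GCGTG on either strand in capitals.
ALDOC: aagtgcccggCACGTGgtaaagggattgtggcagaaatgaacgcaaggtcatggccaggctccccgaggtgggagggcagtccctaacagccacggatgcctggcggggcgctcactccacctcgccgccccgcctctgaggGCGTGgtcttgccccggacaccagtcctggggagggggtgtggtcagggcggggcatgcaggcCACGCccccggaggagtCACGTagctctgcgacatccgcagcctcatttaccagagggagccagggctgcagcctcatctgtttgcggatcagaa
It holds ACGTG 3 times, counting the palindrome CACGTG on each strand, and GCGTG 2 times.

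The lesser falls at 24 h were those of BNIP3 (-0.26 ± 0.07, adjusted p = 0.00597), PGK1 (-0.24 ± 0.08, 0.0167), PFKL, the liver-type phosphofructokinase gene (-0.23 ± 0.07, 0.0125), and ALDOA, the main aldolase gene (-0.14 ± 0.04, 0.0132). VEGFA differed by 0.20 ± 0.09 (adjusted p = 0.142), LDHA by -0.28 ± 0.13 (0.121) and GAPDH by 0.01 ± 0.04 (0.935). The call of BNIP3 was lost without radiation replicate 1 or 2 (adjusted p up to 0.0699), PGK1 without those or untreated replicate 1 (0.0879), ALDOA without replicate 3 of either group (0.0677) and HIF1A without untreated replicate 2 or 3 or radiation replicate 3 (0.0942). PGK1 and ALDOA were lost with quantile normalization too, at adjusted p of 0.131 and 0.381, and the split of calls was then 10 higher and 10 lower, and 10 and 11 with the silent-family covariate.

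**Figure D3:**
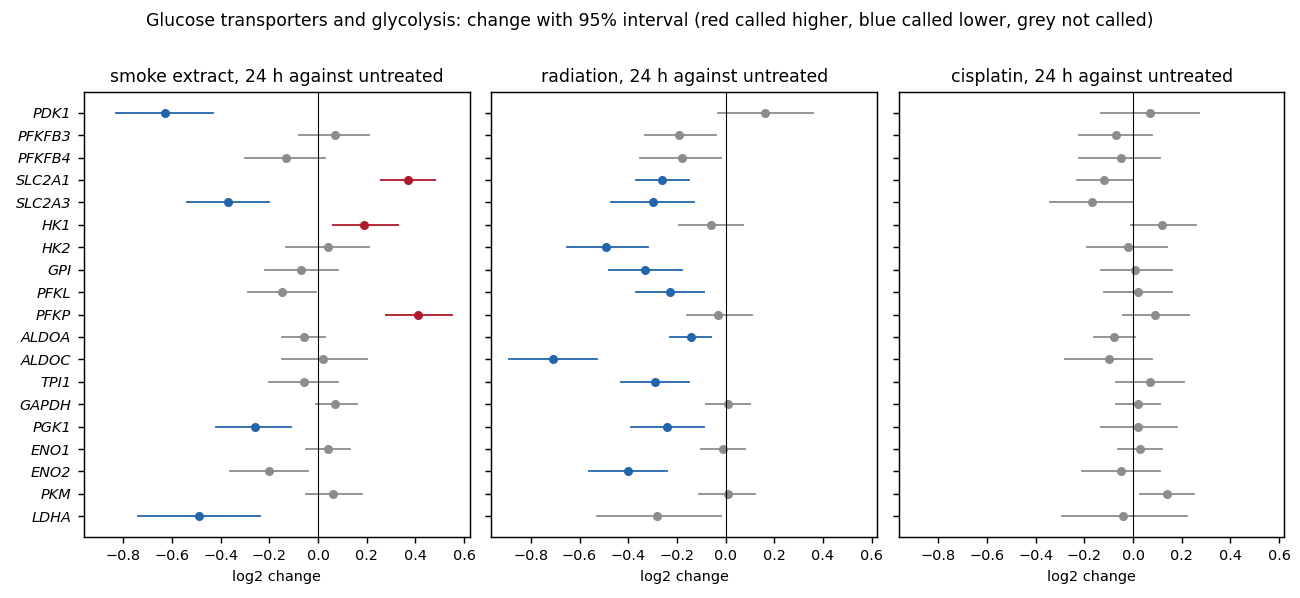
Points give the log2 change at 24 h against untreated cells for the regulators, transporters and glycolytic enzymes, with 95% intervals from the limma fit, for smoke extract, radiation and cisplatin, which share the untreated arrays. With radiation 8 of the 14 enzymes are called lower, led by ALDOC at -0.71, with smoke extract 2 are higher and 2 lower, and with cisplatin 0 are called.

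Radiation was also given to pretreated cells, so the effect can be read over 9 irradiated and 18 other arrays. ALDOC ran from 7.80 to 8.13 with a median of 7.86 on the 9 irradiated arrays at 24 h, against 8.22 to 8.73 with a median of 8.49 on the 18 others. HK2 ran from 7.49 to 7.78 with a median of 7.60 on the irradiated arrays, against 7.88 to 8.20 with a median of 8.07 on the others. These were the 2 members lower without overlap, against 1.49% of all genes, and 0 were higher without overlap, against 0.641%. Averaged over the 3 pretreatments, radiation raised 10 and lowered 15 of the 38 genes, against 32.5% of all genes. The share of genes above the median level was not computed for this average. TPI1 fell by 0.30 (SE 0.04), HK1 by 0.12 (SE 0.04), ENO1, the main enolase gene, by 0.10 (SE 0.03) and PFKFB3, which drives phosphofructokinase, by 0.18 (SE 0.04), while PDK1 rose by 0.20 ± 0.06, BNIP3L by 0.22 ± 0.05, P4HA2 by 0.18 ± 0.04 and VEGFA by 0.16 ± 0.05. The plot of 24 h levels shows 8 of these genes by pretreatment.

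**Figure D4:**
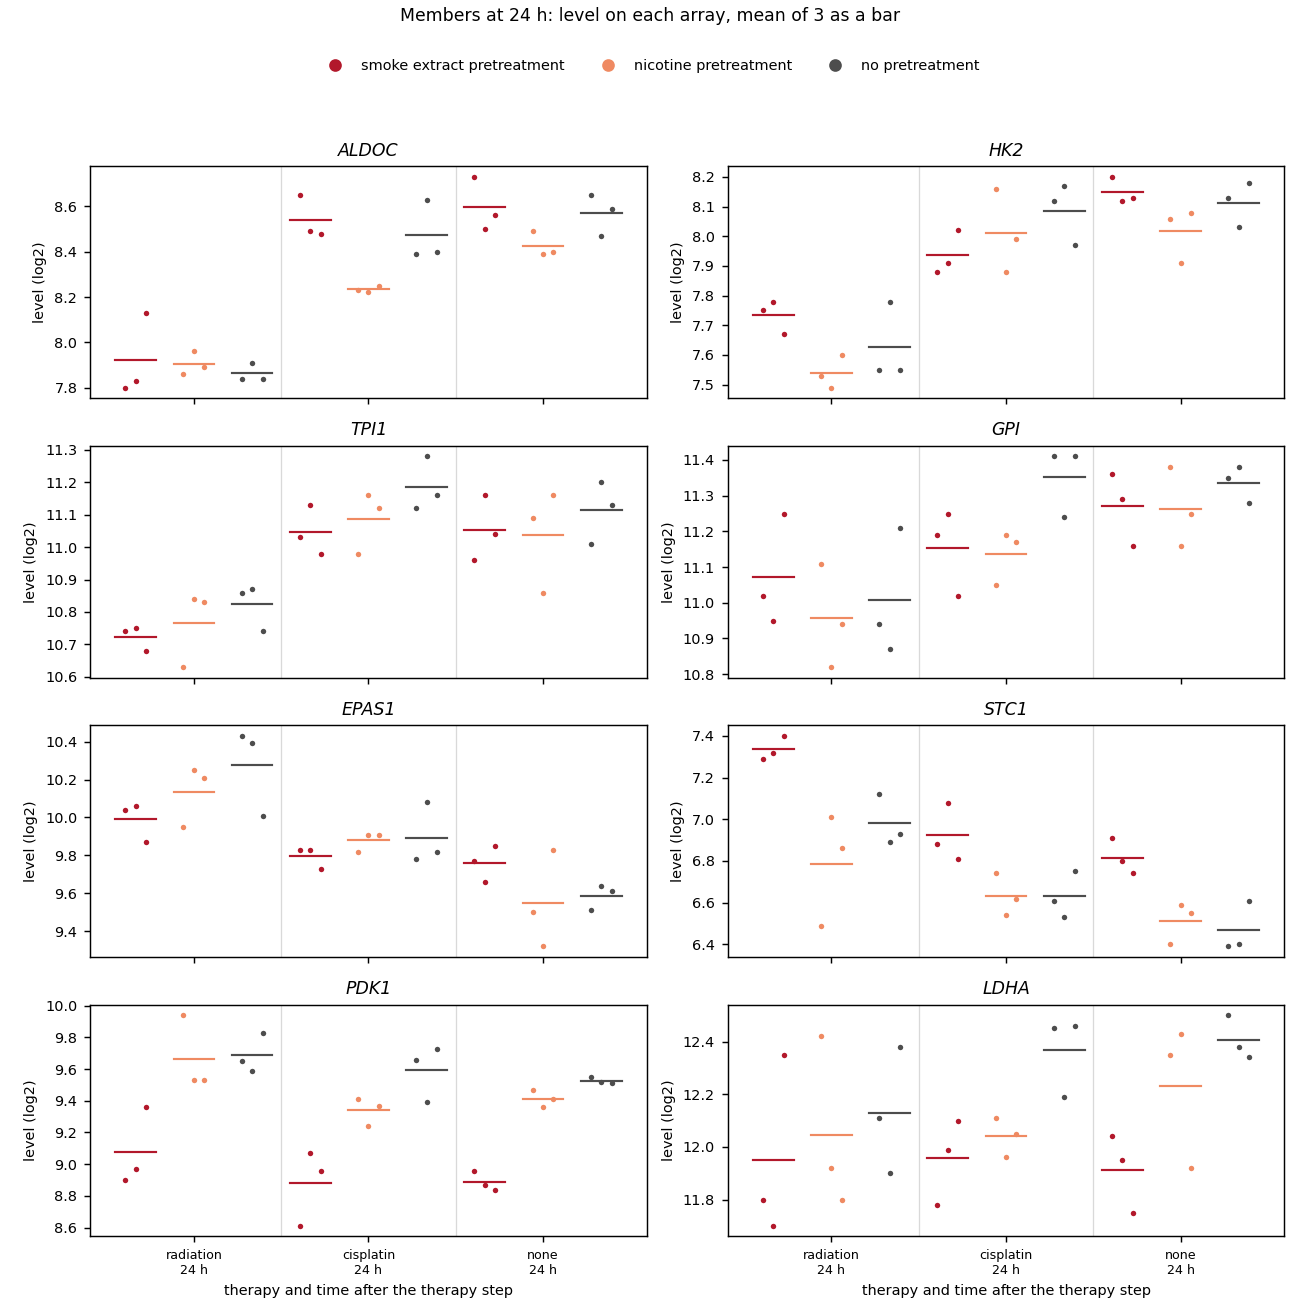
Points give the log2 level on each array at 24 h and bars the mean of 3, by therapy (across) and pretreatment (colour), for 8 genes. ALDOC and HK2 are lower on all 9 irradiated arrays than on the 18 others, and PDK1 is lowest with smoke extract in each therapy.

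The radiation effect differed between 24 h and 2 h in 13 of the 38 genes, 4 higher and 9 lower at 24 h, against 13.0% of all genes (6.07% higher and 6.94% lower) and 22.6% of those above the median level. ALDOC led the lower ones (-0.74 ± 0.13, adjusted p = 4.35e-05), followed by HK2 (-0.54 ± 0.12) and TPI1 (-0.40 ± 0.10). EPAS1 led the higher ones (0.67 ± 0.13, adjusted p = 0.000364), with radiation arrays at 2 h of 9.52, 9.57 and 9.56, against 9.50, 9.61 and 9.48 in untreated cells. Without untreated replicate 2 at 2 h, 8 genes were called.

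Other genes of the pathway are read against the same 21.0% of all genes and 35.0% of those above the median level. Of 14 genes for pyruvate and lactate routing 3 rose and 6 fell (64.3%). PDK4 stood at 9.43, 9.43 and 9.40 in irradiated cells, against 8.51, 8.40 and 8.35 in untreated cells (1.00 ± 0.10, adjusted p = 1.07e-10), the opposite of its fall with smoke extract at 2 h. DLAT, a subunit gene of pyruvate dehydrogenase, fell by 0.41 (adjusted p = 1.05e-05). TIGAR, a p53 target gene whose protein slows glycolysis, stood at 7.80, 7.48 and 7.78 with radiation and at 6.51, 6.46 and 6.54 without (1.18 ± 0.17, adjusted p = 7.89e-07), and it was the 1 gene that rose among 20 further glycolysis and gluconeogenesis genes, of which 3 fell (20.0%, near the background). The untreated TIGAR arrays lie below 6.76, so the size of its change is uncertain. Of 27 other HIF target genes 8 rose, led by WSB1 at 0.87 ± 0.09, and 3 fell, led by HILPDA at -0.92 ± 0.17 (40.7%). Of 12 HIF regulators 4 rose, among them CITED2, which holds HIF back, by 0.47 ± 0.08, and 3 fell, among them RBX1 by 1.08 (SE 0.20) and ELOB, of the same complex, by 0.52 (58.3%).

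Cisplatin gave few calls in the gene set. At 2 h, 0 of the 38 genes were called with limma, against 0.00543% of all genes and 0.0109% of those above the median level, with 1 of the 38 at an unadjusted p under 0.05. DDIT4 (-0.39 ± 0.14, adjusted p = 1) and ALDOA (-0.06 ± 0.04, adjusted p = 1) had the smallest p. At 24 h, 1 of the 38 genes was called, KDM3A, against 3.8% of all genes (2.15% higher and 1.65% lower) and 6.69% of those above the median level. KDM3A stood at 7.40, 7.56 and 7.55 with cisplatin, against 7.20, 7.01 and 7.16 in untreated cells (0.38 ± 0.11, adjusted p = 0.0428). The call was lost without any 1 untreated array or cisplatin replicate 2 or 3 (up to 0.208), and 2 genes were called without replicate 1. With the silent-family covariate 2 rose and 1 fell. Averaged over the pretreatments, EPAS1 rose by 0.22 ± 0.05, and ANGPTL4 fell by 0.25, SLC2A3 by 0.23 and BNIP3 by 0.14, against 5.03% of all genes.

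Set directly against cisplatin at 24 h, radiation gave 4 higher and 7 lower of the 38 genes, against 13.0% of all genes (5.14% higher and 7.91% lower) and 20.0% of those above the median level. All 7 lower ones were glycolytic enzymes: ALDOC (-0.61 ± 0.09, adjusted p = 1.6e-06), HK2 (-0.46 ± 0.08, 6.84e-05), TPI1 (-0.36 ± 0.07, 0.000166), GPI (-0.35 ± 0.07, 0.000701), ENO2 (-0.35 ± 0.08, 0.00141), PGK1 (-0.26 ± 0.08, 0.0137) and PFKL (-0.25 ± 0.07, 0.0106). EPAS1 (0.38 ± 0.09, 0.00348), STC2 (0.35 ± 0.10, 0.0166), STC1 (0.35 ± 0.11, 0.0205) and NDRG1 (0.27 ± 0.08, 0.0205) were higher. Calls lost without 1 array were PGK1 (radiation replicate 1 or 2, cisplatin replicate 3), EPAS1 (radiation replicate 1), STC2 (radiation replicate 2, cisplatin replicate 1), STC1 (radiation replicate 1, cisplatin replicate 1 or 2) and NDRG1 (radiation replicate 1 or 2, cisplatin replicate 1 or 3), with adjusted p up to 0.173, and 7 genes were called without radiation replicate 1. The silent-family mean was higher by 0.14 with radiation than with cisplatin, and its part was not tested.

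Nicotine alone gave 0 calls with limma among the 38 genes at 2 h, where 0.0% of all genes were called and 0 of the 38 had an unadjusted p under 0.05. The smallest p belonged to ANGPTL4 (0.18 ± 0.12) and PFKFB4 (-0.12 ± 0.08), both with an adjusted p of 1. At 24 h nicotine again gave 0 calls, against 0.00543% of all genes and 0.0109% of those above the median level, with 2 of the 38 at an unadjusted p under 0.05, BNIP3L (-0.17 ± 0.08, adjusted p = 0.814) and PGK1 (-0.15 ± 0.08, adjusted p = 0.841) having the smallest. In irradiated cells it gave 0 calls as well, against 0.00543% and 0.0109%, with 6 of the 38 at an unadjusted p under 0.05, ENO1 (-0.14 ± 0.04, adjusted p = 0.565) and ALDOA (-0.11 ± 0.04, adjusted p = 0.737) having the smallest. Averaged over the therapies at 24 h, DDIT4 fell by 0.31 (SE 0.08), PGK1 by 0.21 (SE 0.04) and PKM, the pyruvate kinase gene, by 0.11 (SE 0.03), against 5.21% of all genes.

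In cisplatin-treated cells nicotine lowered 5 of the 38 genes at 24 h and raised 0, against 17.8% of all genes (8.25% higher and 9.56% lower) and 19.1% of those above the median level. The share of the 38 genes called was 13.2%, which lies near the background. DDIT4 stood at 8.92, 8.71 and 9.25 with nicotine and cisplatin, against 9.46, 9.67 and 9.45 with cisplatin alone (-0.57 ± 0.14, adjusted p = 0.0107), and PGK1 at 11.18, 11.28 and 11.29 with nicotine and cisplatin, against 11.53, 11.53 and 11.55 with cisplatin alone (-0.29 ± 0.08, 0.0142). SLC2A3, GPI and P4HA2 fell by 0.21 to 0.24, with adjusted p from 0.0378 to 0.0431. All 5 calls were lost without cisplatin replicate 3 and with the silent-family covariate, each also without at least 1 of the nicotine with cisplatin arrays (adjusted p up to 0.266), and 11 genes were called without cisplatin replicate 2. The silent-family mean was higher by 0.21 with nicotine and cisplatin than with cisplatin alone, and among genes above the median level 286 rose and 1476 fell. The part of this shift in the calls was not tested.

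Because the extract was dosed by its nicotine, smoke extract against nicotine compares the other smoke constituents at equal nicotine. At 2 h smoke extract was higher in 6 and lower in 1 of the 38 genes, against 3.39% of all genes (1.64% higher and 1.75% lower) and 5.6% of those above the median level. STC2 differed by 2.08 ± 0.10, NDRG1 by 1.58 ± 0.08, DDIT4 by 0.63 ± 0.14 and SLC2A1 by 0.51 ± 0.06, and ANGPTL4 was lower by 0.55 ± 0.12 on the log2 scale. The call of ADM (0.32 ± 0.08) was lost without nicotine replicate 2 or 3 or smoke extract replicate 2 (adjusted p up to 0.0945), and that of KDM3A (0.39 ± 0.11) without replicate 1 or 3 of either group (up to 0.245). At 24 h it was higher in 7 and lower in 2, against 12.8% (9.81% higher and 2.94% lower) and 22.1%, and higher in 5 and lower in 4 with quantile normalization. The count at 24 h thus lay near the share of genes above the median level. STC2 differed by 1.71 ± 0.10, NDRG1 by 0.82 ± 0.08, KDM3A by 0.59 ± 0.11, PFKP by 0.42 ± 0.07, SLC2A1 by 0.35 ± 0.06 and PDK1 by -0.52 ± 0.10. VEGFA (0.34 ± 0.09) and ANGPTL4 (-0.44 ± 0.12) lost their calls without nicotine replicate 1 or 2 or smoke extract replicate 3, and HK1 (0.21 ± 0.07) without nicotine replicate 2 or smoke extract replicate 1 or 3, with adjusted p up to 0.231. Without nicotine replicate 2, 6 genes were called, and 15 without nicotine replicate 3.

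Untreated cells changed between the times as well, which is why each treatment was set against untreated cells of its own time. At 24 h, 3 of the 38 genes were higher and 1 lower than at 2 h, against 1.92% of all genes (0.885% higher and 1.04% lower) and 3.31% of those above the median level, and 5 were higher and 0 lower with quantile normalization. ANGPTL4 stood at 7.97, 7.99 and 8.06 at 24 h, against 7.36, 7.55 and 7.38 at 2 h (0.57 ± 0.12, adjusted p = 0.003). SLC2A3 stood at 11.01, 11.03 and 11.05 at 24 h and at 10.55, 10.54 and 10.50 at 2 h (0.50 ± 0.08, adjusted p = 0.000193). NDRG1 was higher by 0.42 ± 0.08 (adjusted p = 0.00189) and TPI1 lower, at -0.25 ± 0.07 (adjusted p = 0.0458), a call lost without any 1 of the 6 arrays (up to 0.233). The smoke extract falls of ANGPTL4 and SLC2A3 at 24 h were thus falls below a level that had itself risen in untreated cells. The smaller smoke extract effect on NDRG1 at 24 h was likewise read against a risen untreated level.

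Over the 18 comparisons of 2 groups, NDRG1 was called 11 times, STC2 10 times and KDM3A 8 times, each time higher. SLC2A1 was called higher 8 times and lower 1 time. PGK1 was called lower 5 times, and GPI, ENO2 and PDK1 4 times each, and none of these was called higher. EPAS1, ANGPTL4, DDIT4, SLC2A1, SLC2A3 and HK2, 6 genes in all, were called higher in some comparisons and lower in others. The 9 genes called in none were EGLN1, LOX, P4HA1, BNIP3L, ANKRD37, PFKFB3, GAPDH, ENO1 and PKM, whose log2 changes over these comparisons lay between -0.28 and 0.26. Many of these comparisons share arrays, so the counts describe the pattern and are not independent of each other.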

How the data were processed

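RNA of NCI-H460 cultures was measured on 54 arrays, 3 per group in 18 groups. The deposited values are on a log2 scale as far as their range shows (0.89 to 13.81, array medians 6.43 to 6.63). Affymetrix Power Tools 1.15.0 was used by the authors, per the submitters' processing notes. The summarization method, the normalization and the genome build are not given in the sources used here, and plates or scan times were not given and could not be tested as batches. Precision is limited by 3 arrays a group.

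The platform annotation gives 1 symbol for 19460 of 33297 rows, several for 1754 and none for 12083. The brightest row stood for each of 18417 genes, 769 of which had more than 1 row. A model of 18 group means (36 residual degrees of freedom) was fitted with limma 3.58.1 in R 4.3.3, with eBayes and an intensity trend, two-sided tests and Benjamini-Hochberg adjustment over all genes. The fitting code was tested on simulated data.

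The 41 genes and the other gene lists were chosen with earlier results of these data known. Named were the called members, the largest 8 in each direction and the smaller ones too, up to 3 called genes of each other list, a few classic targets whatever their test, and the smallest p where none was called. Same-numbered arrays of different groups had deviations that correlated between -0.728 and 0.731, with a median of 0.016, against -0.001 for other numbers, so the numbers were not treated as pairs. Alternatives were quantile normalization, the mean of a gene's rows, no trend, the silent-family mean as a covariate, genes above the median level alone, a replicate block, the compared groups alone, effects averaged over therapies or pretreatments, and each array left out in turn.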

Additional observations from a re-analysis of the deposited data

Results flagged for a closer look

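These are differences between 2 effects of the same treatment that limma called, each tested as a contrast of 4 groups. The effect of smoke extract at 24 h was larger in irradiated than in untreated cells for SLC2A1, by 0.30 on the log2 scale. For EPAS1 the difference was -0.46, with no call in untreated cells and a called fall in irradiated cells. Both calls were lost with quantile normalization, and each was lost without certain single arrays.

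Between the times, the smoke extract effect differed (24 h less 2 h) by -0.93 for NDRG1, -0.56 for LDHA, -0.48 for PDK1, -0.45 for ADM and 0.35 for PFKP. NDRG1 was higher with smoke extract at both times, while LDHA and PDK1 were called lower at 24 h alone and ADM higher at 2 h alone. The NDRG1 difference held whichever array was left out. Those of LDHA, PDK1, ADM and PFKP were each lost without certain single arrays.

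For radiation the same difference was 0.67 for EPAS1, 0.54 for STC1, 0.48 for STC2 and 0.37 for HIF1A. It was -0.74 for ALDOC, -0.54 for HK2, -0.40 for TPI1, -0.39 for ENO2, -0.32 for GPI and -0.32 for PFKL, all glycolytic enzymes. The remaining differences were -0.40 for ADM, -0.35 for BNIP3 and -0.29 for the glucose transporter gene SLC2A1. None of these genes was called with radiation alone at 2 h, and ADM was called higher there when averaged over the 3 pretreatments. Leaving out untreated replicate 2 at 2 h gave 8 calls in place of 13.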

How the results depend on the processing

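Of 136 calls of 1 gene in 1 comparison, 66 held under every setting and 65 were lost without at least 1 array, and 0 results reversed direction. Counts of the 38 genes called moved by more than 1.5 times as follows, and the cause was not tested. Averaging effects over the other treatment gave 14 calls for smoke extract at 2 h (8 in the main fit), 1 for radiation at 2 h (0), 3 for nicotine at 24 h (0) and 4 for cisplatin at 24 h (1). For cisplatin at 24 h, quantile normalization gave 2, the silent-family covariate 3, genes above the median level 2 and the compared groups alone 0. With the compared groups alone, which leaves fewer arrays to estimate the spread, there were 4 calls for smoke extract in irradiated cells at 24 h (9), 8 in cisplatin-treated cells (15), 3 for nicotine in cisplatin-treated cells (5), 3 for radiation against cisplatin (11), 10 for untreated cells at 24 h against 2 h (4), 0 for the interaction of smoke extract with radiation at 24 h (2) and 10 for the smoke extract effect at 24 h minus 2 h (5). The covariate gave 7 for smoke extract and 0 for nicotine in cisplatin-treated cells at 24 h, where quantile normalization gave 2 for nicotine. The interaction with radiation at 24 h had 0 calls with quantile normalization or without the trend, and 4 with the covariate or with genes above the median level. With the replicate number as a block that interaction had 1 call and no other count moved by over 1.5 times; smoke extract kept a count of 8 at 2 h and 16 at 24 h, and radiation 17 at 24 h. Leaving out 1 array gave 5 to 7 calls for smoke extract at 2 h, 5 to 8 in irradiated and 5 to 6 in cisplatin-treated cells. At 24 h it gave 10 to 13 for smoke extract, 6 to 10 in irradiated and 7 to 16 in cisplatin-treated cells, 15 to 18 for radiation, 0 to 2 for cisplatin, 0 to 11 for nicotine in cisplatin-treated cells and 7 to 12 for radiation against cisplatin. It gave 5 to 7 at 2 h and 6 to 15 at 24 h for smoke extract against nicotine, 3 to 3 for untreated cells at 24 h against 2 h, 0 to 5 and 0 to 1 for the interactions at 24 h with radiation and cisplatin, 2 to 4 for the smoke extract effect and 8 to 13 for the radiation effect at 24 h minus 2 h, and 33 to 36 for the F test. A fit without arrays far from their group in the silent-family mean was not run, because 0 arrays met that rule. No scaling moved the median of all genes by more than 0.1.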
